A study of Mus musculus with 12 samples.

Results

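Fkbp5, Hif3a, Cdkn1a and Foxo1 are 4 gene loci that stress hormones and energy signals are known to control, and they were followed here through 9 annotated features of 55471 in the count tables. The 9 are the 4 genes' own rows and every feature with at least 50% of its exon bases inside 1 of these genes on the opposite strand, by the GENCODE M21 annotation. The 5 opposite-strand features are AC154912.1 and Gm22146 inside Fkbp5, 4833404L02Rik inside Hif3a, AC167363.2 inside Cdkn1a and Gm20402 inside Foxo1. Each of the 5 had 100% of its exon bases inside its gene, so none lay near the threshold.

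RNA came from mixed cortex and hippocampus of C57BL6JL male mice aged 3 to 5 months. In the stimulated group, 85 mA were passed between ear clips for 1 s, which caused tonic-clonic convulsions; this is maximal electroconvulsive stimulation (MECS), and the mice were killed 90 min later. Naive mice were handled alongside without a current. All tissue was homogenized and irradiated with ultraviolet light at 400 mJ/cm2, which crosslinks RNA to protein. The 12 libraries form 4 groups of 3: MECS U1 and naive U1 hold RNA precipitated with an antibody to U1-70K, a protein of U1 snRNP, the small nuclear ribonucleoprotein of splice site recognition, and MECS input and naive input hold RNA kept from the same lysates. No group is a precipitate with a control antibody, so a ratio of U1 to input also carries any other difference in RNA recovery. Title prefixes join each U1 library to its input library, but the labels do not say whether a tissue preparation was 1 mouse or several, and p-values measure the spread between preparations.

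Glucocorticoids, the stress hormones of the adrenal cortex, act through the glucocorticoid receptor, which chaperones hold ready in the cytoplasm. Fkbp5 encodes a co-chaperone that lowers the affinity of the receptor for hormone and is itself induced by the receptor, which closes a feedback loop. Cdkn1a encodes p21, an inhibitor of cyclin-dependent kinases and a classic target of p53. Foxo1 encodes a forkhead transcription factor that insulin signals, through the kinase Akt, keep out of the nucleus. Hif3a encodes a member of the hypoxia-inducible factor family, of which some forms restrain Hif1a. Beyond its role at 5′ splice sites, U1 snRNP holds back early polyadenylation inside introns.

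The positions below are on GRCm38, the assembly called mm10. AC167363.2 is a single-exon feature of 1046 bases on the minus strand of chromosome 17, from 29093416 to 29094461, of the annotation class TEC, for loci that still await experimental evidence. Cdkn1a runs on the plus strand from 29090976 to 29100727, and AC167363.2 covers the first exons of its transcripts that start downstream, together with flanking intron; 26.1% of its overlap with Cdkn1a is exonic. Gm20402 is an antisense feature of 687 exon bases on chromosome 3, from 52268435 to 52269435 on the minus strand. Nearly all of its overlap, 98.1%, lies in exon 1 of Foxo1, which runs on the plus strand from 52268336 to 52353221. Both features therefore lie over a 5′ splice site of the gene on the other strand. Those splice sites are shown because U1 snRNP reads this kind of sequence; the capitals mark the last 3 exon bases and the first 6 intron bases of Cdkn1a at its downstream exons (chr17:29093852-29093881 and chr17:29094032-29094061, plus strand) and of Foxo1 exon 1 (chr3:52269413-52269435, plus strand), each 5′ to 3′ in the direction of the gene.
Cdkn1a first downstream exon: acattcaGAGGTGAGAgcttcgtggcaggg
Cdkn1a alternative downstream exon: tccgcggCAGGTGGATgacgggtgtgggtc
Foxo1 exon 1: gggctggAAGGTGAACggcctct

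The downstream start of Cdkn1a lies wholly inside AC167363.2: all 300 bases of its RefSeq promoter window (GRCm38.p6, chr17:29093519-29093818, plus strand, 250 bases before to 50 after the start) are shared with that feature. The upstream start (chr17:29090729-29091028, plus strand) lies outside it. The windows were searched on both strands for 4 short motifs: ACANNNTGT of the glucocorticoid receptor, ACATGT from the core of the p53 motif, GTAAACA of FoxO factors and ACGTG of hypoxia-inducible factors. Both windows are shown so that the covered and the uncovered start can be compared; the capitals mark ACATGT.
Cdkn1a upstream start: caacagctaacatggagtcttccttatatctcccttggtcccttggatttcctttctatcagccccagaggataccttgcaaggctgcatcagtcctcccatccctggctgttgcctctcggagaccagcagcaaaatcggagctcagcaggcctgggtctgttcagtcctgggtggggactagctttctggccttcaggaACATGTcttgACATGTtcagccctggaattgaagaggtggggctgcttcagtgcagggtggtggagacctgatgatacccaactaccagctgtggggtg
Cdkn1a downstream start: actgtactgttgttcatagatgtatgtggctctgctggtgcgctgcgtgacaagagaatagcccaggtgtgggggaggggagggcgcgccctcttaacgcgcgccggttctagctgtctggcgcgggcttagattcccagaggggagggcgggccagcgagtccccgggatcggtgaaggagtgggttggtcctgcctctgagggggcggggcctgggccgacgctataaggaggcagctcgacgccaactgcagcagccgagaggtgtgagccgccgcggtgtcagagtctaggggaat
The upstream window holds 2 matches to ACATGT, at 49 and 39 bases before the start, and 0.329% of 32851 mouse promoter windows hold at least 2, while 5.28% hold at least 1. The window of Fkbp5 holds ACGTG on both strands, overlapping itself as a single palindrome, a letter string that 19.6% of windows hold. ACANNNTGT and GTAAACA have no match in the 5 windows of the 4 genes; 6.85% and 3.65% of all windows hold them.

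AC154912.1 lies on chromosome 17 from 28446500 to 28456457 on the plus strand, with 2191 exon bases, and Gm22146, a short RNA feature of 288 bases, from 28446861 to 28447148. Both sit in intron 4 of Fkbp5, as numbered in its GENCODE protein-coding transcript with the most exons. Fkbp5 runs on the minus strand from 28399094 to 28517527. The features lie 55.8% and 59.5% of the way along that span and overlap each other at their edge. The RefSeq promoter window of Fkbp5 searched above (28486100 to 28486399) lies inside the span, downstream of its 5′ end, so the intron number depends on the transcript. 4833404L02Rik, another single-exon feature of 908 bases, lies on chromosome 7 from 17058534 to 17059441 on the plus strand, in intron 1 of Hif3a (17031507 to 17062427, minus strand). Neither GGTAAG, a strong form of the 5′ splice site, nor the polyadenylation signal AATAAA was found in any of the 5 features in the direction of the gene they lie inside. In the features' own direction AATAAA had 6 matches in AC154912.1, 2 in 4833404L02Rik and 1 in AC167363.2, and GGTAAG had 0 in all 5. Among intron features of like length, 3.18 to 34.4% held GGTAAG and 5.99 to 59.8% held AATAAA in the direction of the gene they lie inside. No such share was computed for the features' own direction. Gm20402, which lies mostly over an exon, was set beside intron features too.

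**Figure D1:**
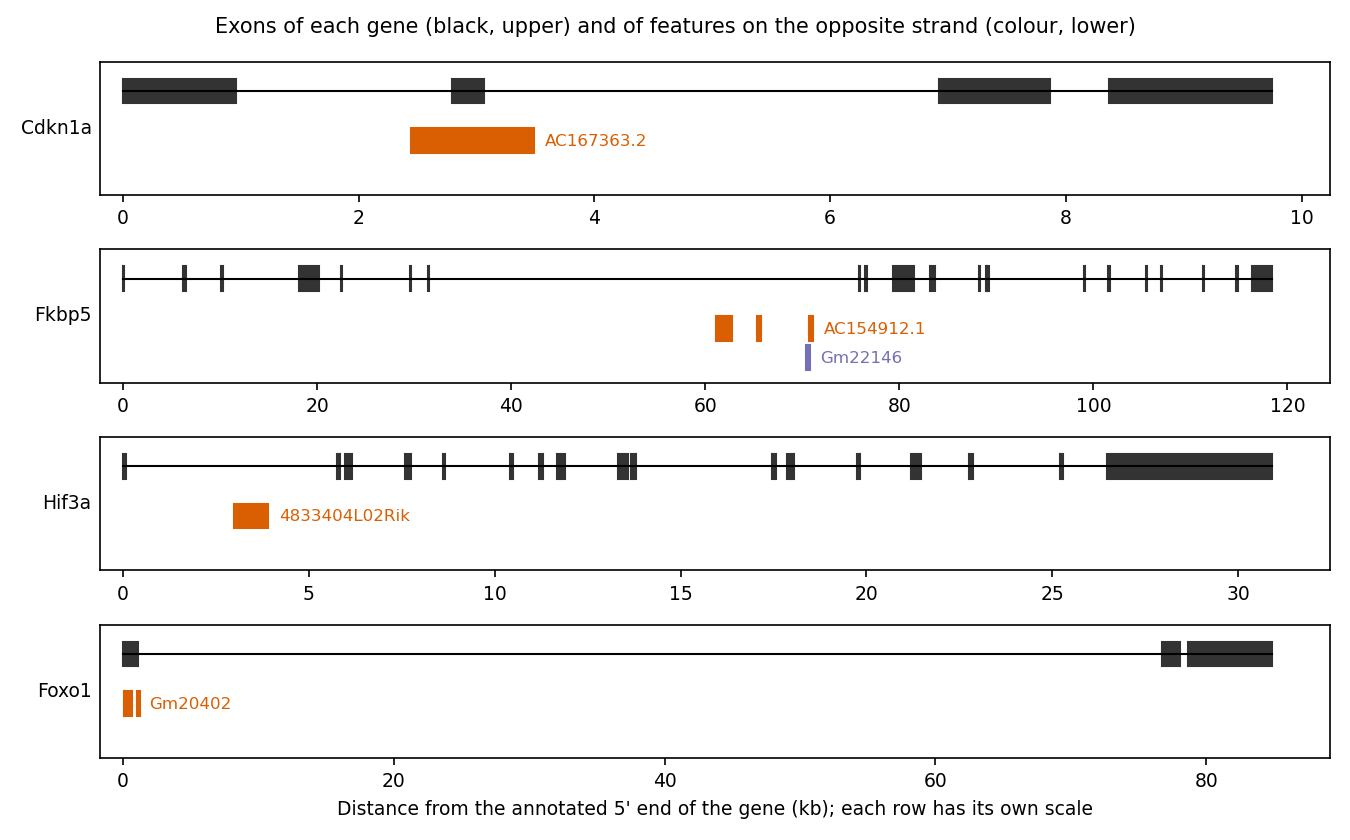
Map of the 4 loci, drawn to scale along each gene with distance from its 5′ end in kb. Black boxes are exons of all transcripts of the gene and coloured boxes below them the exons of features on the opposite strand. AC167363.2 covers the second group of Cdkn1a exons, Gm20402 lies over part of exon 1 of Foxo1, and the other 3 features lie in introns.

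Most counts at these loci stood under the opposite-strand names. Over the 12 libraries the own rows held 39 counts for Fkbp5, 51 for Hif3a, 15 for Cdkn1a and 59 for Foxo1. The opposite-strand features held 1486 counts for AC154912.1, 148 for Gm22146, 602 for 4833404L02Rik, 565 for AC167363.2 and 2461 for Gm20402. The opposite strand thus carried 97.7% of counts at Fkbp5, 92.2% at Hif3a, 97.4% at Cdkn1a and 97.7% at Foxo1. Per kb of exon, the own rows had between 4.12 and 7.60 counts, against 514 to 3582 for the opposite-strand features. Features annotated on the same strand as the gene were as sparse as the own rows, with 2 counts for AC154912.5 and 5 for AC154912.3 inside Fkbp5, and 8 for Gm38034 inside Foxo1. The kit keeps strand, but the sources used here do not give the strand setting of the counting. Each value below is therefore that of the annotated feature, and whether its reads come from the named feature or from RNA of the gene it lies inside cannot be told apart.

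No own row passed the default filter of edgeR on low counts in any comparison. Cdkn1a had 1, 2 and 7 counts in MECS U1, 0, 2 and 2 in naive U1, 0 in all 3 MECS input libraries, and 0, 0 and 1 in naive input. Fkbp5 ranged from 1 to 5 counts in MECS U1, 1 to 4 in naive U1, 4 to 5 in MECS input and 1 to 8 in naive input. Hif3a ranged from 0 to 8 counts in MECS U1, 3 to 7 in naive U1, 3 to 4 in MECS input and 0 to 7 in naive input. Foxo1 had 8, 5 and 7 counts in MECS U1, 4, 5 and 10 in naive U1, 2, 4 and 3 in MECS input and 4, 2 and 5 in naive input. With no filter on low counts the own rows were tested in every comparison and none was called. There the lowest adjusted p was 0.179, for Cdkn1a in U1 against input of MECS brain (unadjusted p = 0.00842), with MECS input at 0.

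Libraries held 704432 to 1962312 counts in genes, which were 1.42 to 1.84% of the listed reads, and 1 count was worth 0.503 to 1.45 CPM. CPM are counts per 1000000 counts in genes, with library sizes scaled by TMM. Of the cell type markers, all 10 neuron, 7 astrocyte and 7 oligodendrocyte genes had counts, as did all but 1 of the 7 microglia genes (Itgam was at 0 in all libraries). Read through opposite-strand features, which 4 of 9 smooth muscle and pericyte markers have, that list summed to 1360 to 2085 CPM in MECS U1, 1473 to 2608 in naive U1, 301 to 431 in MECS input and 258 to 433 in naive input. Of 10 neuron markers 5 have such features, and they summed to 1199 to 1606 CPM in MECS U1, 1123 to 1424 in naive U1, 2863 to 4908 in MECS input and 3473 to 5317 in naive input. These opposite-strand sums of 2 lists separated U1 from input and overlapped between MECS and naive within each kind of RNA. Other lists also separated U1 from input in both brains. Endothelial markers were higher in U1, by own rows and by the sum of 1 marker. Lower in U1 were the own rows of neuron, astrocyte, oligodendrocyte and microglia markers and the sums of 2 astrocyte markers. Some readings did not overlap between MECS and naive. The own rows of 8 endothelial markers summed to 257 to 282 CPM in MECS U1 and 303 to 361 in naive U1, and to 202 to 219 in MECS input and 236 to 264 in naive input. In U1 RNA alone, the own rows of 9 smooth muscle and pericyte markers summed to 462 to 503 CPM in MECS and 559 to 609 in naive brain, those of 7 oligodendrocyte markers to 339 to 377 in MECS and 311 to 319 in naive brain, and the sums of 2 astrocyte markers to 1397 to 1458 in MECS and 1083 to 1263 in naive brain. The other readings of the marker lists overlapped between MECS and naive. Of single tested features, 8.88% lay wholly higher and 6.12% wholly lower in MECS input than in naive input. In U1 RNA these shares were 8.79% and 6.67%, and no such share was computed for summed lists. The part of these lists in the MECS differences below was not tested.

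After MECS the feature inside Cdkn1a, the cell cycle inhibitor gene, rose in input RNA. AC167363.2 had 52.3, 22.3 and 41.4 CPM in the 3 MECS input libraries (71, 25 and 43 counts), against 8.55, 13.0 and 15.8 CPM in the naive input libraries (10, 9 and 21 counts). The lowest MECS library lay above the highest naive library, which was true of 8.88% of tested features. The means were 38.7 ± 15.2 CPM in MECS input and 12.5 ± 3.65 CPM in naive input (SD, n = 3 each), a ratio of 3.10. In the quasi-likelihood test of edgeR, AC167363.2 rose by 1.61 on the log2 scale (SE 0.35, Benjamini-Hochberg adjusted p = 0.0169), rank 32 of 10402 features tested. It was the 1 member called of 4 that were tested, where 0.606% of all tested features were called, 0.51% as higher and 0.0961% as lower. The call was lost without naive input 1 (1.38, adjusted p = 0.170), without naive input 2 (1.64, 0.0523), without MECS input 1 (1.34, 0.0890) or without MECS input 3 (1.58, 0.0703), always with the same direction. DESeq2 gave AC167363.2 no adjusted p here (1.62, unadjusted p = 0.000142) and so did not call it. In whole tissue, more RNA per cell and more cells that hold the RNA cannot be told apart.

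The same feature was also higher in U1 RNA after MECS, but the groups met. AC167363.2 had 76.4, 29.9 and 84.8 CPM in MECS U1 (101, 39 and 137 counts), against 16.0, 27.2 and 36.3 CPM in naive U1 (13, 54 and 42 counts). MECS U1 2 lay between naive U1 2 and naive U1 3, while the other MECS libraries lay above all naive ones. The means were 63.7 ± 29.6 CPM in MECS U1 and 26.5 ± 10.2 CPM in naive U1 (SD, n = 3 each), a ratio of 2.40. With edgeR the difference was 1.22 (SE 0.31, adjusted p = 0.0898) and did not pass. DESeq2 called it (1.24, adjusted p = 0.0387), and so did edgeR without MECS U1 2 (1.57, adjusted p = 0.00227) and with other filters on low counts. It did not pass with any other library left out (0.97 to 1.48, adjusted p = 0.0835 to 0.456) or with the replicate block (1.11, 0.127). It was the 1 member of 5 that DESeq2 called, where DESeq2 called 78 of 11141 features as higher and 8 as lower. Without MECS U1 2, edgeR called 102 of 12035 features as higher and 19 as lower. The edgeR test reported first called 0 of 5 members, where 0.386% of 11141 features were called, 0.332% as higher. In that test 1172 features, AC154912.1, 4833404L02Rik and AC167363.2 among them, had an unadjusted p under 0.05.

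**Figure D2:**
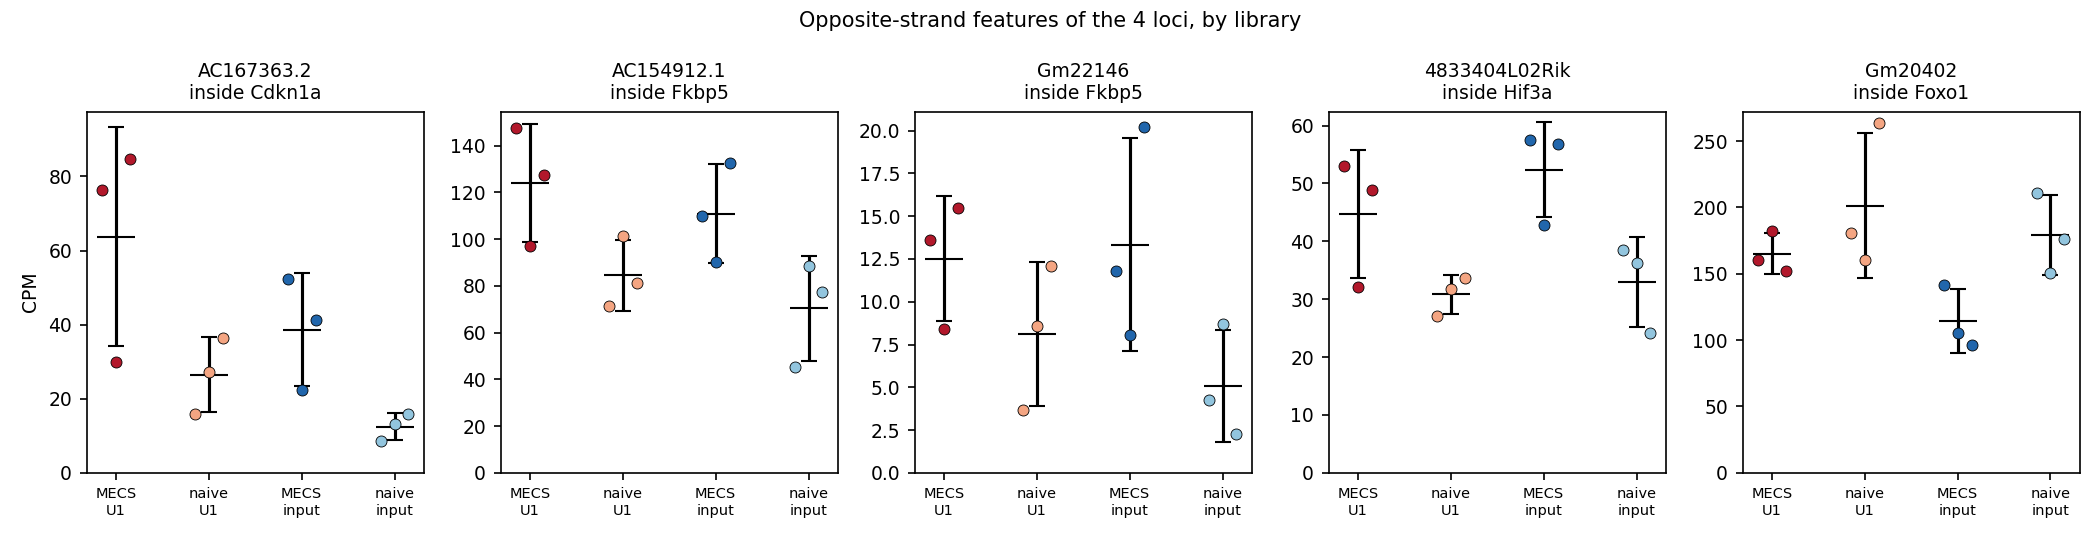
CPM of the 5 opposite-strand features in each of the 12 libraries; each point is a library, and the bars are mean ± SD of the 3 libraries of a group. AC167363.2 lay at 22.3 to 52.3 CPM in MECS input and 8.55 to 15.8 CPM in naive input, and Gm20402 at 96.2 to 141 CPM in MECS input and 151 to 211 CPM in naive input.

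The feature inside Foxo1, the insulin-restrained transcription factor gene, lay lower after MECS. Gm20402 had 141, 105 and 96.2 CPM in MECS input (192, 118 and 100 counts), against 211, 151 and 176 CPM in naive input (247, 104 and 234 counts). All MECS libraries lay below all naive libraries, which was true of 6.12% of tested features. The means were 114 ± 23.9 CPM in MECS input and 179 ± 30.5 CPM in naive input (SD, n = 3 each), a ratio of 0.638. As a feature, Gm20402 differed by -0.67 (SE 0.18, edgeR adjusted p = 0.0697) and missed the threshold. It passed without MECS input 1 (-0.84, adjusted p = 0.0230), the library with its highest MECS value. With the replicate block, which joins MECS and naive preparations that share only a number, it also passed (-0.68, 0.0262). Without any of the other 5 libraries it did not pass, at -0.76 to -0.54 with adjusted p = 0.116 to 0.465.

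A second table, in which counts were summed over the opposite-strand features of each gene and tested over 3024 such sums, called Foxo1 as well. Gm20402 is the only feature of the Foxo1 sum, so its counts are the same and the smaller number of sums tested and their own scaling differ. There the Foxo1 sum fell by 0.71 (SE 0.17, edgeR adjusted p = 0.0432) and the Cdkn1a sum, which is AC167363.2 alone, rose by 1.57 (SE 0.36, adjusted p = 0.0321). These were 2 of 4 sums, where 1.12% of all sums were called, 0.794% as higher and 0.331% as lower. The Foxo1 call was lost when any of the 3 naive input libraries was left out (adjusted p = 0.285, 0.0822 and 0.0745 for naive input 1, 2 and 3), and likewise for MECS input 2 (0.123) or 3 (0.298). The Cdkn1a call was lost when naive input 1 (1.32, adjusted p = 0.242) or 2 (1.61, 0.0822), or MECS input 1 (1.29, 0.10) or 3 (1.52, 0.20), was left out. In U1 RNA Gm20402 had 160, 182 and 152 CPM in MECS U1 (212, 238 and 246 counts), against 181, 160 and 264 CPM in naive U1 (147, 318 and 305 counts). These groups overlapped, with means of 165 ± 15.5 CPM in MECS U1 and 201 ± 54.9 CPM in naive U1 (SD, n = 3 each), and the difference was -0.30 (SE 0.18, edgeR adjusted p = 0.590).

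The features inside Fkbp5, the co-chaperone gene, lay higher after MECS without passing the test. AC154912.1 had 110, 90.2 and 133 CPM in MECS input (149, 101 and 138 counts), against 45.3, 88.3 and 77.5 CPM in naive input (53, 61 and 103 counts). The MECS group lay wholly higher, as for 8.88% of tested features, but MECS input 2 and naive input 2 lay within 2 CPM of each other. The means were 111 ± 21.3 CPM in MECS input and 70.4 ± 22.4 CPM in naive input (SD, n = 3 each), a difference of 0.65 (SE 0.22, edgeR adjusted p = 0.198). In U1 RNA AC154912.1 had 148, 97.2 and 127 CPM in MECS U1 (195, 127 and 206 counts), against 71.3, 101 and 81.3 CPM in naive U1 (58, 201 and 94 counts). Naive U1 2 lay above MECS U1 2, and the difference was 0.52 (SE 0.19, edgeR adjusted p = 0.295).

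Gm22146, the other feature in that intron, had 11.8, 8.04 and 20.2 CPM in MECS input (16, 9 and 21 counts), against 4.28, 8.69 and 2.26 CPM in naive input (5, 6 and 3 counts). Naive input 2 lay above MECS input 2, and the feature did not pass the default filter on low counts in these 6 libraries. With no filter it differed by 1.54 (edgeR adjusted p = 0.348). In MECS U1 it had 13.6, 8.42 and 15.5 CPM and in naive U1 3.69, 8.56 and 12.1 CPM, a difference of 0.56 (SE 0.44, edgeR adjusted p = 0.714). Summed, both Fkbp5 features averaged 124 ± 27.5 CPM in MECS input and 75.4 ± 24.0 CPM in naive input (SD, n = 3 each). That sum differed by 0.68 in input (SE 0.22, edgeR adjusted p = 0.149) and by 0.45 in U1 RNA (SE 0.18, adjusted p = 0.276), and it passed in input only with library size scaling (adjusted p = 0.00907) or with no filter on low counts (0.0292) among the settings run.

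Hif3a gave differences of like size to Fkbp5. 4833404L02Rik had 57.5, 42.9 and 56.8 CPM in MECS input (78, 48 and 59 counts), against 38.5, 36.2 and 24.1 CPM in naive input (45, 25 and 32 counts). All MECS libraries lay above all naive libraries, and the difference was 0.67 (SE 0.25, edgeR adjusted p = 0.306). In MECS U1 it had 53, 32.1 and 48.9 CPM (70, 42 and 79 counts) and in naive U1 27.0, 31.7 and 33.7 CPM (22, 63 and 39 counts). MECS U1 2 lay below naive U1 3, and the difference was 0.51 (SE 0.25, edgeR adjusted p = 0.473). In all, 3 of the 5 features lay wholly higher in MECS input than in naive input, where 8.88% of tested features did, and 1 wholly lower; in U1 RNA all 5 overlapped, where 8.79% of features lay wholly higher and 6.67% wholly lower.

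**Figure D3:**
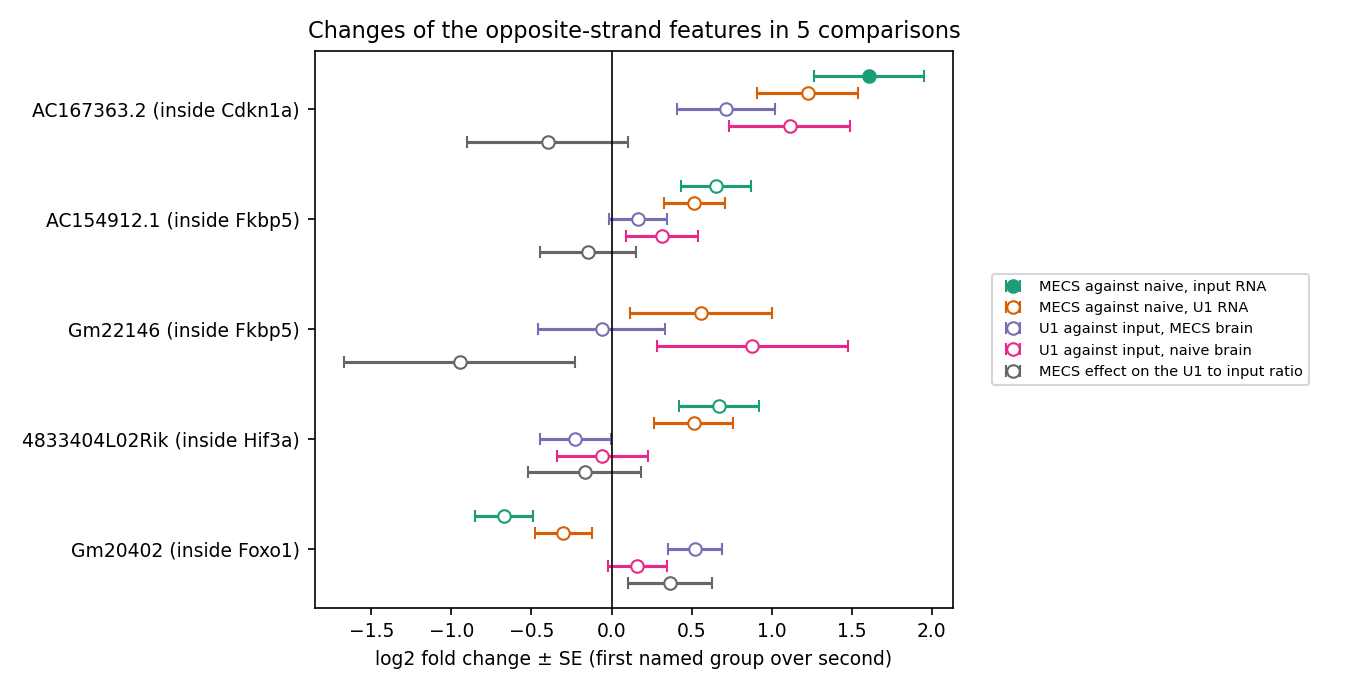
Log2 fold changes of the 5 features with edgeR in the 5 comparisons, first named group over second, with bars of 1 SE; the filled point has an adjusted p under 0.05. AC167363.2 was at 1.61 and Gm20402 at -0.67 for MECS against naive in input RNA, and Gm22146 did not pass the filter on low counts there.

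AC167363.2 lay higher in the U1 precipitate than in input in all 6 preparations; these comparisons use the same 12 libraries as those of MECS. In naive brain it had 16.0, 27.2 and 36.3 CPM in U1 and 8.55, 13.0 and 15.8 CPM in input, and every U1 library lay above every input library, which held for 13.0% of tested features. The feature differed by 1.11 (SE 0.38, edgeR adjusted p = 0.0545), and 0 of 5 members were called as features with edgeR and with DESeq2, where 10.5% of 10918 features were called and 2324, AC167363.2 among them, had an unadjusted p under 0.05. As a sum, Cdkn1a rose in U1 by 1.11 (SE 0.37, adjusted p = 0.0400), the 1 of 4 sums called where 16.4% of all sums were, 6.91% as higher. That call was lost without naive input 1 (0.84, adjusted p = 0.240), naive input 2 (1.15, 0.0792), naive U1 2 (1.14, 0.0792) or naive U1 3 (0.82, 0.206). In MECS brain AC167363.2 had 76.4, 29.9 and 84.8 CPM in U1 and 52.3, 22.3 and 41.4 CPM in input. U1 exceeded input in each of the 3 preparations, and the unpaired difference was 0.72 (SE 0.31, edgeR adjusted p = 0.183).

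Gm20402 had 160, 182 and 152 CPM in U1 and 141, 105 and 96.2 CPM in input of MECS brain. Its lowest U1 library lay above its highest input library, as for 12.1% of tested features, and the unpaired difference was 0.52 (SE 0.17, edgeR adjusted p = 0.0580). Without MECS input 1 it passed (0.70, adjusted p = 0.0145), and without MECS U1 2 AC167363.2 passed instead (1.04, adjusted p = 0.0114). Since U1 and input libraries came from the same lysates, they were also compared with the preparation as a block. Within preparations both features rose in U1 of MECS brain, AC167363.2 by 0.70 (edgeR adjusted p = 0.00699) and Gm20402 by 0.53 (adjusted p = 0.00305). That comparison called 13.8% of features, 6.0% as higher. The unpaired comparison had called 0 of 5 members with edgeR and with DESeq2, where it called 8.51% of features (3.3% as higher) and 2143 features, both of these among them, had an unadjusted p under 0.05. In naive brain Gm20402 differed by 0.16 (SE 0.19, edgeR adjusted p = 0.696). The blocked comparison called no member as a feature there, where it called 396 of 10918 features as higher and 647 as lower. It called Cdkn1a as a sum again, where 17.5% of sums were called, 7.49% as higher.

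The Fkbp5 and Hif3a features passed in neither brain. AC154912.1 differed by 0.17 (SE 0.18, edgeR adjusted p = 0.689) in MECS brain and by 0.31 (SE 0.22, adjusted p = 0.477) in naive brain, and 4833404L02Rik by -0.23 (SE 0.22, 0.643) and -0.06 (SE 0.28, 0.946). Gm22146 differed by -0.06 (SE 0.40, 0.957) in MECS brain and 0.88 (SE 0.60, 0.447) in naive brain. The opposite-strand sums of 4 smooth muscle and pericyte markers given above, which were higher in U1 than in input, moved with the same contrast. So did those of 5 neuron markers, which were lower, and the other lists above that separated U1 from input. The part of these lists in these differences was not tested. The own rows of all 9 smooth muscle and pericyte markers overlapped in MECS brain, at 462 to 503 CPM in U1 and 467 to 517 in input. In naive brain these own rows lay wholly higher in U1, at 559 to 609 CPM against 429 to 552 in input.

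The effect of MECS on the ratio of U1 to input was not resolved for any member. The log2 ratio of AC167363.2, with 0.5 CPM added to both values, was 0.54, 0.41 and 1.03 in the 3 MECS preparations and 0.86, 1.03 and 1.18 in the 3 naive ones. The means were 0.66 ± 0.32 in MECS and 1.02 ± 0.16 in naive brain (SD, n = 3 each), and a 2-sided exact permutation test gave p = 0.2, where 0.1 is the smallest p that 3 against 3 allow. Gm20402 had ratios of 0.18, 0.79 and 0.66 in MECS preparations and -0.23, 0.09 and 0.58 in naive preparations (exact p = 0.2). For AC154912.1, 4833404L02Rik and Gm22146 the exact p was 0.6, 0.8 and 0.7, and 1 naive preparation of Gm22146, with 3 counts in input, reached 2.19. In the edgeR interaction over all 12 libraries the difference of the ratios, MECS less naive, was -0.40 (SE 0.50) for AC167363.2, 0.36 (SE 0.26) for Gm20402, -0.15 (SE 0.30) for AC154912.1, -0.17 (SE 0.35) for 4833404L02Rik and -0.95 (SE 0.72) for Gm22146, each with an adjusted p of 0.997. edgeR and DESeq2 called 0 members, and edgeR called 0 of 12184 features, of which 383 had an unadjusted p under 0.05, none of them a member. That interaction was unpaired, with no term for the preparation. With the preparation as a block, edgeR called 1 of 12184 features and 0 members.

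**Figure D4:**
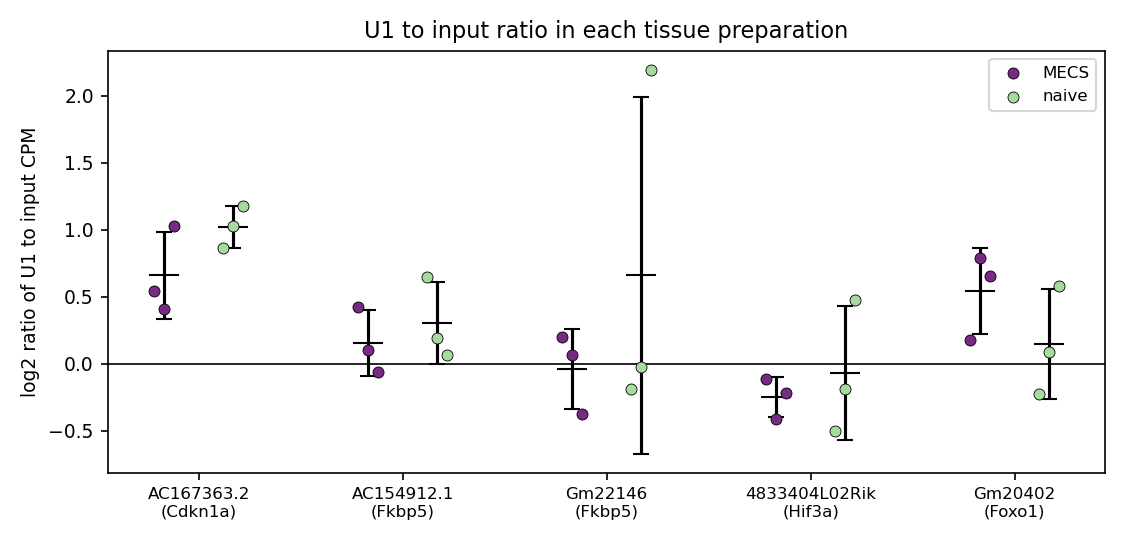
Log2 ratio of U1 to input CPM in each tissue preparation, with 0.5 CPM added to both; points are preparations and bars are mean ± SD of 3. AC167363.2 lay above 0 in all 6 preparations, at 0.41 to 1.03 in MECS and 0.86 to 1.18 in naive brain, while the other features crossed 0 in at least 1 group.

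Most other genes of the same pathways could not be tested for MECS in input RNA, whether read by their own rows or by opposite-strand sums. Of those tested, most gave no call after MECS, and no opposite-strand sum of these lists was called in input or U1 RNA. Of 30 further glucocorticoid-induced genes, 12 had an own row that could be tested in input RNA; 7 lay above 0, 0 passed, and their median was 0.12, against -0.02 for all features tested. The single opposite-strand sum of that list, at Mertk, a receptor for apoptotic cell uptake, differed by 1.03 in input (SE 0.29, edgeR adjusted p = 0.0823) and 0.77 in U1 RNA (SE 0.39, adjusted p = 0.422). Of 25 genes of the receptor, its chaperones and the stress axis, 9 were tested by own row in input RNA, with 6 above 0, 0 called and a median of 0.04. Of 29 genes of p53 signalling and cell cycle inhibition 9 were tested, with 4 above 0, 0 called and a median of -0.05. Of 27 insulin, FoxO and Akt pathway genes 8 were tested, with 1 above 0, 0 called and a median of -0.19. Of 20 genes of the hypoxia-inducible factor pathway 8 were tested, with 7 above 0, 1 called and a median of 0.22. In U1 RNA the medians were -0.23, -0.10, -0.02, -0.31 and 0.26 in the same order, again with 1 call in the last list alone.

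That call was Hif1a, the oxygen-regulated factor of the family to which Hif3a belongs. Its own row had 153, 86.7 and 200 CPM in MECS input, against 37.6, 57.9 and 40.6 CPM in naive input, and rose by 1.70 (SE 0.24, edgeR adjusted p = 0.000263). In U1 RNA it had 195, 106 and 175 CPM in MECS U1, against 27.0, 59.4 and 24.2 CPM in naive U1, and rose by 2.0 (SE 0.27, adjusted p = 0.000475). All MECS libraries lay above all naive ones in both kinds of RNA, as for 8.88% of tested features in input and 8.79% in U1 RNA. The Hif1a row lies inside the span of Gm15283, a noncoding gene on the other strand, with at least 80% of the overlap in introns of Gm15283. Read through the opposite-strand feature inside Hif1a, which is Gm15283 itself, the differences were 0.15 in input (SE 0.15, edgeR adjusted p = 0.758) and 0.29 in U1 RNA (SE 0.15, adjusted p = 0.430). The row named Hif1a and the feature inside Hif1a thus gave unlike values, and without the strand setting neither can be given to a transcript.

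Some rows and sums named for pathway genes differed between U1 and input. Without the strand setting, none of these values can be given to a transcript. Cdk4, a cyclin-dependent kinase of the G1 phase, fell in U1 by 0.98 in MECS brain (SE 0.16, edgeR adjusted p = 0.000216) and by 1.01 in naive brain (SE 0.19, adjusted p = 0.000235) by its own row. Read as sums, Irs1, an adaptor of the insulin receptor, fell by 0.61 in MECS and 0.94 in naive brain, Bnip3, a mitophagy receptor, by 0.62 and 1.31, and Arnt2, a neuronal partner of hypoxia-inducible factors, by 0.56 and 0.52. Slc2a1, the glucose transporter of brain endothelium, rose as a sum by 0.85 in MECS and 0.76 in naive brain. The sum of Ei24, a p53-induced gene, fell by 1.15 in MECS brain. In naive brain alone, own rows of Map3k6 (1.34), Hsd11b2 (0.63), Cdkn1c (1.66) and Igf1r (0.87) passed as higher in U1 and that of Arnt2 (-1.49) as lower. The unpaired difference from MECS brain was called for none of 12184 features. Igf1r encodes the receptor of insulin-like growth factor and Hsd11b2 an enzyme that inactivates glucocorticoids. The background for these counts is that 8.51% of features and 11.0% of sums were called in MECS brain and 10.5% and 16.4% in naive brain.

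The sums most like each locus over the 12 libraries were found by the root mean square difference of centred log2 CPM among 3514 sums with a mean of at least 4 CPM. The 12 libraries include the contrasts above, so the likeness is a description. For Cdkn1a they were Adamts9, a secreted protease, at 0.377, Baz1a at 0.431 and Col4a2, a basement membrane collagen, at 0.465, where the median over all sums was 1.00. The Adamts9 sum averaged 397 CPM in MECS U1, 137 in naive U1, 231 in MECS input and 87.2 in naive input, so its group means stood in the same order as those of AC167363.2. For Fkbp5 the nearest were Nedd4l, a ubiquitin ligase, at 0.183, 2010300C02Rik at 0.194 and Prkca, a protein kinase C, at 0.199 (median 0.572). For Hif3a they were Gm37245 at 0.199, Rimbp2, a presynaptic active zone protein, at 0.205 and Mast4 at 0.210 (median 0.525). For Foxo1 they were Xkr6 at 0.179, Aspscr1 at 0.185 and Sbno1 at 0.190 (median 0.538). In the order of group means, AC167363.2 and the Fkbp5 sum were highest in MECS U1 and lowest in naive input, 4833404L02Rik was highest in MECS input and lowest in naive U1, and Gm20402 was highest in naive U1 and lowest in MECS input. Neighbouring groups in these 4 orders overlapped in all cases except naive U1 above naive input for AC167363.2 and MECS U1 above MECS input for Gm20402.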

How the data were processed

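For each library the authors deposited raw counts, not normalized, over 55471 Ensembl gene identifiers, of which 55230 matched GENCODE M21. Libraries were made, per the labels' protocols, with a stranded total RNA kit with ribosomal depletion and read as single ends of 100 bp. Per the submitters' processing notes, the tools, in no given role, were HISAT2 2.2.0, Salmon 1.4, StringTie 2.1.3, Trimmomatic 0.39, DESeq2 and FastQC, with build mm10. The sources used here do not name the program, strand setting or annotation behind the counts. Rows that name no gene, of which the reads in no feature made up 88.3 to 91.2% of 42467790 to 129874136 listed reads, were left out of sizes and tests.

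Groups of 3 were compared in edgeR 4.0.16 (R 4.3.3) by its quasi-likelihood test (TMM, filterByExpr, Benjamini-Hochberg over all features tested, threshold 0.05), with the groups of a comparison in a fit and all 12 libraries for the interaction. Fold changes are log2, and each SE is the fold change over the square root of its F statistic. Counts were also summed over opposite-strand features with at least 50% of exon bases inside exactly 1 gene and at most 10% in any other (8067 features, 5709 genes). The edgeR feature test of MECS against naive in input RNA was tried on simulated counts, with the same dispersion for every feature. The other steps were not simulated. Alternatives were a replicate block, DESeq2 1.42.0, other scalings (RLE, library size), other filters on low counts, all libraries in 1 fit, each library left out in turn, and removal of mitochondrial, ribosomal and small RNA features. Promoters are RefSeq's (GRCm38.p6); donor sequences were read from opposite-strand GENCODE transcripts.

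The members and lists were chosen with earlier results of these data known. All members are named, as are list genes past 0.05 (up to 4 a list and comparison, by p) and the 3 sums most like each locus; Mertk, which did not pass, was named after its value was seen as the only sum of its list. U1 and input libraries with the same title prefix share a lysate, which is where their pairing comes from; their deviations from group means correlated at most at 0.0797 over 20608 features. Replicates were no duplicates: chi-square per degree of freedom was 2.53 to 6.82 between libraries of a group. Depth limits precision, since 1 count is worth 0.503 to 1.45 CPM.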

Additional observations from a re-analysis of the deposited data

How the results depend on the processing

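Of 149 counts of called members or sums recomputed under alternatives, 113 stayed within 1.5 times the reported count, and of 658 log2 changes and ratios, 593 kept their direction and their side of the threshold, 22 lost a call, 25 gained one and 18 changed sign. For MECS against naive in input RNA the reported counts were 1 member and 2 sums. The replicate block gave 2 members (Gm20402 also, -0.68, adjusted p = 0.0262); these preparations share only a number, and same-numbered libraries deviated together at -0.026 to 0.0179. All 12 libraries in 1 fit gave 0 sums, removal of mitochondrial, ribosomal and small RNA features 1 sum, and leaving out 1 library 0 to 1 members and 0 to 1 sums. DESeq2 gave AC167363.2 no adjusted p there (1.62, unadjusted p = 0.000142). For MECS against naive in U1 RNA, reported as 0 members and 0 sums, no filter on low counts gave 1 member and 1 sum, a filter of at least 1 CPM in 3 libraries 1 member, DESeq2 1 member, library size scaling 1 sum, and leaving out 1 library 0 to 1 of each; in every such case it was AC167363.2 or the Cdkn1a sum. For U1 against input in MECS brain, also 0 and 0, no filter gave 1 member and 2 sums, the replicate block 2 and 2, and leaving out 1 library 0 to 1 of each. In naive brain, reported as 0 members and 1 sum, library size scaling gave 1 member, DESeq2 and all 12 libraries in 1 fit 0 sums, and leaving out 1 library 0 to 1 of each. The causes were not tested.

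Signs changed only for differences under 0.25 that had not passed. For U1 against input in MECS brain, leaving out 1 library gave Gm22146 -0.31 to 0.32 and the Fkbp5 sum -0.077 to 0.25. In naive brain, library size scaling gave 4833404L02Rik 0.023, and leaving out 1 library gave it -0.27 to 0.090, Gm20402 -0.10 to 0.31, the Hif3a sum -0.29 to 0.051 and the Foxo1 sum -0.13 to 0.34. For the MECS effect on the ratio, leaving out 1 library gave AC154912.1 -0.29 to 0.12, 4833404L02Rik -0.31 to 0.042, the Fkbp5 sum -0.44 to 0.035 and the Hif3a sum -0.33 to 0.026. The replicate block changed no other call. In input RNA, 14 edgeR fits of MECS against naive gave AC167363.2 an adjusted p, and it passed in 10. All 14 kept its direction, at 1.34 to 1.90 with adjusted p of 0.000668 to 0.170. DESeq2 kept it too (1.62) but gave no adjusted p, so it made no call.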
